A study of Homo sapiens with 6 samples.

Results

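The genes described here are the expressed long intergenic non-coding RNAs (lincRNAs) of WM164, an established human melanoma cell line. They were chosen by 2 criteria, the gene type lincRNA in the deposited count table and a mean raw count of at least 50 over all 6 libraries. Of 58870 genes in the table, 7696 had that type and 3587 of those had a count in any library, and 269 met both criteria. All cells carried a lentiviral vector with an EF1α promoter and a blasticidin resistance gene, and were selected with blasticidin. In 3 libraries (GFP) the vector expressed green fluorescent protein as the control, and in 3 libraries (T-MGM) it expressed a tethered dimer, in which the M isoform of MITF and MAFG are joined by a flexible linker. MITF is the transcription factor that defines the melanocyte lineage, and MAFG is a small MAF transcription factor that binds DNA as a dimer. The comparison asks which transcripts differ when the dimer is present, in 1 cell line, and the labels do not say whether the 3 libraries of a group came from separate cultures, so that every p-value measures only the spread between these libraries. Total counts were 35057239 to 38738065 in GFP against 44577774 to 59250663 in T-MGM. MAFG normalized counts were 2397 to 2535 in GFP against 2327 to 2396 in T-MGM, and MITF normalized counts were 19111 to 19204 and 20121 to 20447, so these counts do not check the labels, and GFP and T-MGM below mean the libraries labelled so. The melanocyte markers MITF, SOX10, PMEL, MLANA, DCT and TYR had 2198 to 80361 raw counts in every library, and TYRP1 had at most 6. Of 9 markers of keratinocytes, leukocytes, endothelium and epithelium, 7 had at most 3 counts in every library and the highest level was 0.18 TPM, the transcript level scaled for length and depth.

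LincRNAs encode no known protein, and most are transcribed by RNA polymerase II from their own loci and are often spliced and polyadenylated. Some act where they are made, for example as scaffolds of nuclear bodies or at neighbouring genes that share their promoter region. Others serve mainly as precursors, carrying microRNAs or small nucleolar RNAs (snoRNAs) that are cut out of the transcript. In melanoma the best known member is SAMMSON, a lineage-specific lincRNA encoded close to MITF.

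Sequences are shown for some of the microRNAs held by lincRNAs that differed between groups, because such transcripts can serve as microRNA precursors. They are the mature microRNAs of RefSeq on GRCh38.p14, read 5′ to 3′, with the seed (bases 2 to 8, the part that pairs with target RNAs) in capitals.
hsa-let-7i-5p (in AC048341.1, named MIRLET7IHG in GENCODE): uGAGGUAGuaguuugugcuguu
hsa-let-7b-5p (in MIRLET7BHG): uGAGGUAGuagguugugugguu
hsa-let-7a-5p (in MIRLET7BHG): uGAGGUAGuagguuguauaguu
hsa-miR-221-3p (in MIR222HG): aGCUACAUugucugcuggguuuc
hsa-miR-222-3p (in MIR222HG): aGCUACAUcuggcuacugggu
hsa-miR-210-3p (in MIR210HG): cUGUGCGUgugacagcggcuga
hsa-miR-146a-5p (in MIR3142HG): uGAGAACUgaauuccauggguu
hsa-miR-4435 (in MIR4435-2HG): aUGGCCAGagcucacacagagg
The 3 let-7 microRNAs share the seed GAGGUAG and miR-221 and miR-222 share GCUACAU, and the other 3 each have a seed of their own. The microRNAs themselves were not measured in these libraries.

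Expressed lincRNAs spanned a wide range of levels, but most were low. Their median level was 1.81 TPM (quartiles 0.968 and 3.99), with 72 members under 1 TPM, 28 over 10 TPM and 6 over 100 TPM. The median of the mean raw count was 124, and 105 members lay under 100 counts, close to the minimum that chose them. Just inside that minimum were AP002381.2 and MIR29B2CHG at a mean raw count of 51, and just outside it were AC068473.5 at 49.8, AP001816.1 at 49.3 and LINC00520 at 49. Since the T-MGM libraries were deeper, the minimum on raw counts favours transcripts that are high in T-MGM. A mean normalized count of at least 50 was reached in T-MGM alone by 13 members and in GFP alone by 17, and these had to differ to some extent to be members. Of 260 members with a position in GENCODE release 44 on GRCh38, 172 overlapped another annotated gene, 123 of them on the opposite strand. The sources name different library kits, 1 without and 1 with strand information, so reads of a lincRNA and of a gene on its opposite strand cannot be told apart with certainty.

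Between GFP and T-MGM, expressed lincRNAs differed in both directions, and their median change was near 0. An adjusted p at or under 0.05 (DESeq2, adjusted over all genes tested; called "passed" below) was reached by 69 of 268 members tested, or 25.7%, with 33 higher and 36 lower in T-MGM. Over all 19166 genes tested, 38.4% passed, 19.2% higher and 19.2% lower. The split among members was 36 higher and 30 lower with offsets for GC content and length, 36 and 35 with TMM scaling in DESeq2, and 30 and 29 with edgeR. With total counts as scaling it was 27 higher and 46 lower, and on log2(TPM + 1) values with limma it was 16 higher and 37 lower (7 and 23 without the filter on low TPM, 13 and 37 on log2(TPM + 0.1)). On that TPM scale the median log2 fold change of all genes was itself -0.12. A fold change over 2 in addition was found for 8 members, or 2.99%, with 3 higher and 5 lower, and over all genes for 4.62%, 3.26% higher and 1.37% lower. Among protein-coding genes with the same count minimum the shares were 57.2% and 3.28%. Where both groups averaged 50 or more normalized counts, 59 of 239 members passed, 28 higher and 31 lower. Of these, 4 were past 2-fold, AP003100.1 upward and LINC01291, LINC01293 and LINC01531 downward. The remaining members that passed averaged that much in 1 group only, so their direction was tied to the count minimum. All libraries of 1 group lay above all of the other for 98 of 269 members, or 36.4%, beside 46.8% of all genes tested. T-MGM was the higher group for 46 of these members and the lower for 52, beside 23.4% of all genes in each direction. The median log2 fold change of the members was -0.014 (quartiles -0.23 and 0.22), beside -0.0028 over all genes tested and -0.0093 over protein-coding genes with the same count minimum, and 218 members lay within 0.5 of 0. The log2 fold changes of members that passed ranged from 0.22 to 3.90 with a median of 0.51 for those higher and from -0.17 to -2.71 with a median of -0.63 for those lower. Of the 199 members that did not pass, 185 had a 95% interval of the log2 fold change that lay between -1 and 1.

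**Figure D1:**
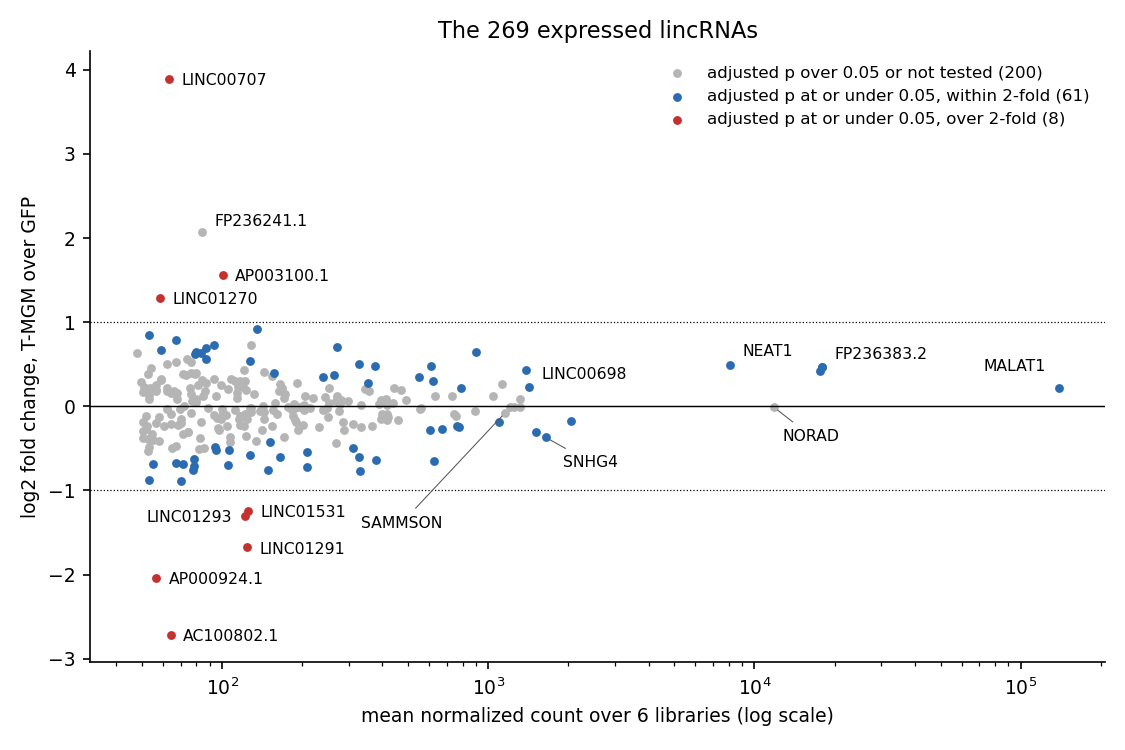
Log2 fold change (T-MGM over GFP) against the mean normalized count over 6 libraries (log axis) for each of the 269 expressed lincRNAs, with dotted lines at a 2-fold change. The 8 members past 2-fold in red all lie at mean counts under 200, whereas MALAT1, NEAT1 and the other blue points above 1000 lie within 0.5 of the line at 0.

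Since most lincRNAs have low counts, they were set beside protein-coding genes in bands of the mean raw count. Between 50 and 100 counts, 22.1% of 104 lincRNAs and 35.4% of 557 protein-coding genes passed, and 3.85% against 20.5% did so with over 2-fold. Between 100 and 200 counts the shares that passed were 17.8% of 73 and 35.2% of 772, and those past 2-fold 5.48% and 10.4%. Between 200 and 500 counts 22.2% of 54 lincRNAs and 41.1% of 1648 protein-coding genes passed. Above that the order was mixed, with 55.6% of 18 against 49.4% of 1919 between 500 and 1000 counts, and 57.9% of 19 against 68% of 6530 from 1000 counts. In the lowest band the median standard error was 0.26 for both gene types, while the median absolute log2 fold change was 0.31 for lincRNAs and 0.41 for protein-coding genes. These shares are descriptions without a test, since genes are not independent replicates.

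**Figure D2:**
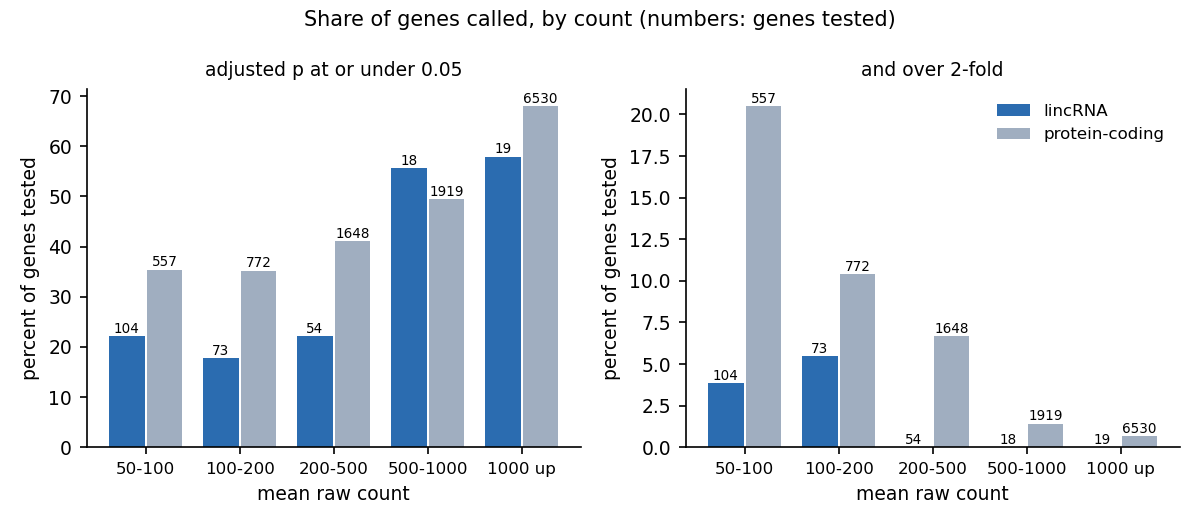
Percent of genes tested that had an adjusted p at or under 0.05 (left) and in addition a fold change over 2 (right), by band of the mean raw count, for lincRNAs (blue) and protein-coding genes (grey), with the number of genes tested above each bar. In the 3 bands under 500 counts the lincRNA bars are the lower ones in both panels.

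LINC00707 had the largest increase among the members, from near the detection limit in GFP to over 100 counts in T-MGM. It lies on chromosome 10 (ENSG00000238266.2, 6779549 to 6842906, plus strand, GRCh38) and overlaps unnamed annotated genes on both strands. Its normalized counts read 3.60, 8.66 and 11.4 in GFP against 105, 119 and 131 in T-MGM. The groups were far apart, the log2 fold change was 3.90 (SE 0.39, adjusted p = 1.4e-22), or 14.9-fold, and raw counts in GFP were only 3, 8 and 10. The nearest protein-coding start, that of PRKCQ, which encodes protein kinase C theta, lay 199 kb away, and PRKCQ had a mean normalized count under 2 in both groups. LINC00707 reached the count minimum only through its T-MGM libraries, as did LINC01270, and AC100802.1 and AP000924.1 did so only through GFP.

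The other lincRNAs past 2-fold upward were AP003100.1 and LINC01270. AP003100.1 (ENSG00000254626.1; chromosome 11, 112787304 to 112795854, plus strand) is a short single-transcript locus upstream of NCAM1, which encodes a neural cell adhesion molecule. Its normalized counts read 43.2, 50.9 and 58.3 in GFP against 184, 136 and 130 in T-MGM, all T-MGM libraries being over 2 times the highest GFP library. Its log2 fold change was 1.56 (SE 0.23, adjusted p = 4.7e-11), whereas NCAM1, whose start is 174 kb away, had a log2 fold change of -0.06 (SE 0.04, adjusted p = 0.26). LINC01270 (ENSG00000203999.8; chromosome 20, 50292709 to 50315488, plus strand) had 25.2, 50.9 and 25.1 normalized counts in GFP against 71.2, 99.5 and 78.2 in T-MGM. The groups did not overlap, but GFP replicate 2 stood at about 2 times the level of the other GFP libraries. The log2 fold change of LINC01270 was 1.29 (SE 0.30, adjusted p = 0.00010), and it did not pass on the TPM values (0.37 on the log2(TPM + 1) scale, limma adjusted p = 0.056). CEBPB, which encodes a bZIP transcription factor, starts 102 kb from it and fell by 0.27 on the log2 scale (SE 0.05).

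The largest decrease was that of AC100802.1 (ENSG00000253775.2), a single-transcript locus on chromosome 8. Its normalized counts read 97.1, 114 and 123 in GFP against 20.1, 14.6 and 16.2 in T-MGM. The T-MGM libraries lay close together and far below GFP, and the log2 fold change was -2.71 (SE 0.29, adjusted p = 1.5e-19), or 6.56-fold lower. SLC18A1, a vesicular monoamine transporter gene that faces it with a start 104 kb away, was also lower, by a log2 fold change of -1.39 (SE 0.34) from mean normalized counts of 55.5 to 21.3. The 40 protein-coding genes measured within 5 Mb of AC100802.1 had a median log2 fold change of 0.17.

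AP000924.1 (LINC02732 in GENCODE; ENSG00000254416.5, chromosome 11, 110355130 to 110407613, plus strand) had 69.6, 103 and 102 normalized counts in GFP against 27.4, 9.76 and 28.8 in T-MGM. T-MGM replicate 2 was lowest and the groups did not overlap, with a log2 fold change of -2.04 (SE 0.33, adjusted p = 3.0e-09). RDX, which encodes the actin-linking protein radixin and starts 58.4 kb away in the head-to-head direction, was lower by a smaller amount, with a log2 fold change of -0.27 (SE 0.02).

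LINC01291 and LINC01293 are adjacent loci on the same strand of chromosome 2 with 1.84 kb between them, and both fell. LINC01291 (ENSG00000204792.2; 74918148 to 74938418) had 189, 197 and 178 normalized counts in GFP against 85.8, 41.0 and 50.2 in T-MGM, a log2 fold change of -1.68 (SE 0.22, adjusted p = 1.1e-13). LINC01293 (ENSG00000230836.1; 74940258 to 74942670) had 130, 173 and 217 in GFP against 89.4, 44.9 and 75.3 in T-MGM, a log2 fold change of -1.31 (SE 0.23, adjusted p = 1.1e-07). In both loci T-MGM replicate 1 was the highest and replicate 2 the lowest T-MGM library, and the counts do not show whether they are 1 transcript or separate ones. POLE4, a DNA polymerase epsilon subunit gene whose start is the nearest protein-coding one to both, at 40.5 and 18.4 kb, had a log2 fold change of 0.11 (SE 0.11, adjusted p = 0.46). LINC01531 (ENSG00000205786.8; chromosome 19, 35399511 to 35419385, plus strand) had 157, 165 and 208 normalized counts in GFP against 80.3, 68.3 and 74.5 in T-MGM. Its T-MGM libraries were tightly grouped, and its log2 fold change was -1.25 (SE 0.19, adjusted p = 2.1e-10). GPR42, the nearest protein-coding gene at 28.4 kb, had no count in any library.

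**Figure D3:**
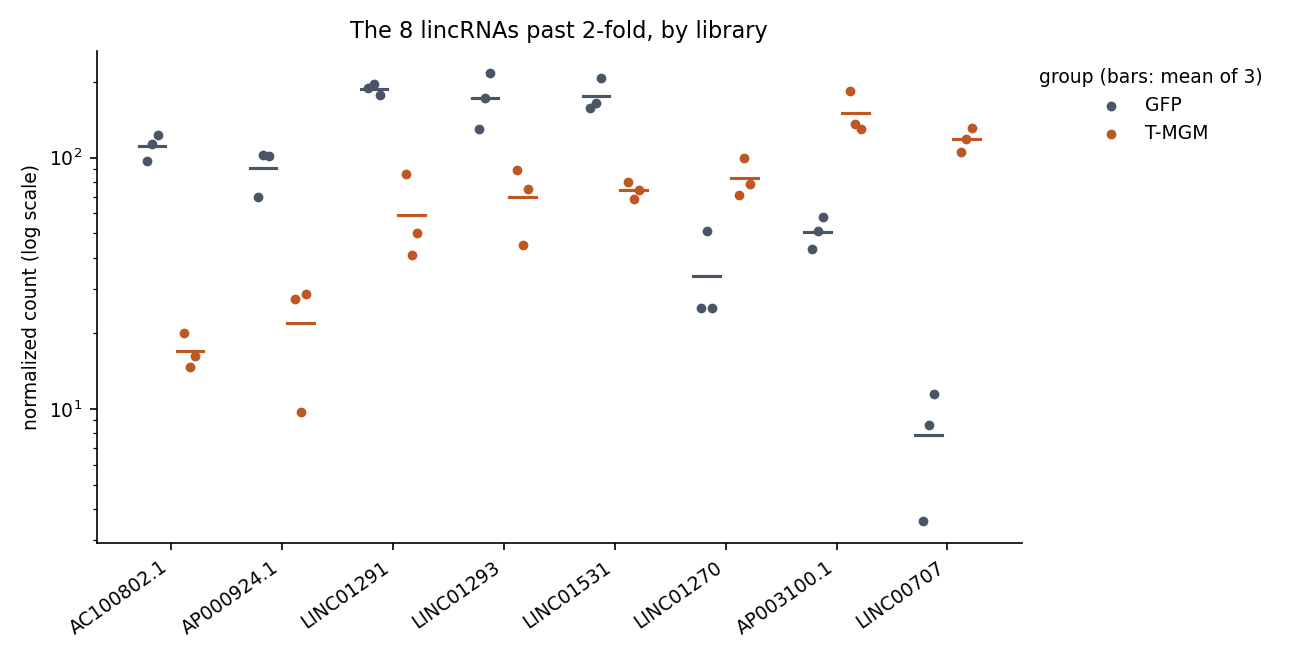
Normalized counts (log axis) in each of the 6 libraries for the 8 lincRNAs past 2-fold, with GFP in grey, T-MGM in orange and bars at the mean of 3 libraries. The groups do not overlap for any of the 8, and LINC00707 shows the widest gap, from 3.60 to 11.4 in GFP against 105 to 131 in T-MGM.

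Promoters of these loci were read from RefSeq on GRCh38.p14 and searched on both strands, from 250 bases before to 50 after the start, because MITF binds the E-box CACGTG and the related CATGTG and small MAF proteins bind elements that hold TGCTGA. Of the 269 members, 120 matched an entry there, and of the 8 past 2-fold only LINC01270 and LINC01531 did. Both are shown on the plus strand, with any of these motifs on either strand in capitals.
LINC01270, chr20:50292470-50292769: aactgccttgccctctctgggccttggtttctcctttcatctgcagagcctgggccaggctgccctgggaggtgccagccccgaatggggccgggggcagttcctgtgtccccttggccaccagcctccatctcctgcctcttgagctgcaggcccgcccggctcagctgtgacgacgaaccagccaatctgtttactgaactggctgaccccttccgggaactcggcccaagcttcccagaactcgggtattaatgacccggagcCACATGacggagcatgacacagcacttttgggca
LINC01531, chr19:35405357-35405656: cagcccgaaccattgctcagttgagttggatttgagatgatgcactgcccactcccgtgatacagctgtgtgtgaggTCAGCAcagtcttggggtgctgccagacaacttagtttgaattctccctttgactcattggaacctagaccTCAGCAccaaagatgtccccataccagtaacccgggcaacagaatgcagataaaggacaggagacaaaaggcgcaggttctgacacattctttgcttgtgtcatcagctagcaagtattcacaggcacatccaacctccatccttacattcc
LINC01270 held 1 CATGTG, on the minus strand, and LINC01531 held 2 TGCTGA, both on the minus strand, at a RefSeq start (35405607) inside the GENCODE locus. Among 130 promoter entries of members, 6.15% held CACGTG, 13.8% CATGTG and 16.9% TGCTGA, beside 7.26%, 11.1% and 17.3% of all 35116 entries. Among the 31 entries of members that passed, 1, 5 and 8 held them. The motifs searched are those of the separate factors. At sites where both factors bind in WM164, the authors report AP-1 as the strongest motif and the E-box as a weak one. The AP-1 motif was not searched here. A match in letters is a description only, and binding was not measured in these libraries.

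Among lincRNAs known in melanoma, SAMMSON was nearly level, and LINC00698 was moderately higher in T-MGM. SAMMSON (ENSG00000240405.6; chromosome 3, 69999550 to 70518064, plus strand) is a lineage-specific transcript on which melanoma cells are known to depend. Its normalized counts read 1222, 1157 and 1181 in GFP against 1151, 1095 and 1123 in T-MGM. All T-MGM libraries lay just under all GFP libraries, but the log2 fold change was -0.08 (SE 0.06, 95% interval -0.19 to 0.03, adjusted p = 0.29). The result depended on the scaling: SAMMSON passed as lower with total counts as scaling (-0.13, adjusted p = 0.046) and on TPM values (-0.27, limma adjusted p = 0.0047), and with offsets for GC content and length its log2 fold change was 0.012. MITF, the nearest protein-coding gene with a start 260 kb upstream on the same strand, had a log2 fold change of 0.08 (SE 0.02, adjusted p = 4.8e-07), which was -0.062 on the log2(TPM + 1) scale (limma adjusted p = 0.10). The T-MGM vector also encodes MITF, so transcripts of the vector and of the endogenous gene cannot be told apart in these MITF values. LINC00698 (ENSG00000244342.5; chromosome 3, 62950430 to 63125062) had 1360, 1243 and 1324 normalized counts in GFP against 1514, 1585 and 1504 in T-MGM, without overlap. Its log2 fold change was 0.23 (SE 0.05, adjusted p = 4.9e-05), but only 0.02 on the log2(TPM + 1) scale (limma adjusted p = 0.73). LINC00518, the remaining melanoma lincRNA of the list and a low one, had 52.8, 72.5 and 59.4 normalized counts in GFP against 65.7, 91.7 and 84.9 in T-MGM, with overlap and an adjusted p of 0.23.

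Both RNAs of the nuclear bodies rose. MALAT1, an abundant RNA of nuclear speckles (ENSG00000251562.8; chromosome 11, 65497640 to 65508073), had 127649, 127903 and 129668 normalized counts in GFP against 150522, 146398 and 151184 in T-MGM. The libraries of each group lay close together and the groups far apart, and the log2 fold change was 0.22 (SE 0.01, adjusted p = 1.4e-56), with 0.11 on the log2(TPM + 1) scale and 0.38 with offsets for GC content and length. NEAT1, the scaffold of paraspeckles (ENSG00000245532.8; 65422774 to 65445540 on the same chromosome), had 6372, 6883 and 6832 in GFP against 9798, 9257 and 9260 in T-MGM. Its log2 fold change was larger, at 0.50 (SE 0.04, adjusted p = 1.3e-28). The 183 protein-coding genes measured within 5 Mb of the pair had a median log2 fold change of 0.30, and FRMD8, the nearest protein-coding gene of NEAT1, had 0.22 (SE 0.03). MALAT1 overlaps its antisense RNA TALAM1, and neither overlaps a protein-coding gene.

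The most abundant members per length were, beside MALAT1 at 1220 TPM in GFP and 1321 TPM in T-MGM, mainly short or repeated loci whose counts are uncertain. FP236383.2, FP236383.3 and FP671120.4 lie in the ribosomal RNA arrays of chromosome 21, each with 923 exonic bases. FP236383.2 and FP236383.3 had the same count in every library, and FP671120.4 differed from them in 1 library only, so the 3 are not independent measurements, and 67 members passed when they were counted once. FP236383.2 had 13935, 15669 and 15460 normalized counts in GFP against 19587, 23041 and 19578 in T-MGM, a log2 fold change of 0.46 (SE 0.10, adjusted p = 6.2e-06). AL360012.1, 131 bases that overlap the small nuclear RNA gene RNU11, had 1250 TPM in GFP and 675 TPM in T-MGM from only 51.7 to 94.8 normalized counts a library, with an adjusted p of 0.63. RMRP, the RNA of the ribonuclease MRP, has a lincRNA row with 895 to 1205 normalized counts in GFP against 1029 to 1400 in T-MGM, and did not pass (adjusted p = 0.27, but 1.7e-05 with edgeR). NORAD, an abundant cytoplasmic RNA that binds PUMILIO proteins, had 11894, 11774 and 12096 normalized counts in GFP against 11861, 11571 and 11981 in T-MGM. Its log2 fold change was -0.01 (95% interval -0.05 to 0.02), though it passed as lower with total counts as scaling (-0.067) and on TPM values (-0.16, limma adjusted p = 0.0058), and as higher with offsets for GC content and length (0.12).

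These few loci also set the share of all counts that fell on expressed lincRNAs. The share was 0.601%, 0.613% and 0.616% in GFP against 0.678%, 0.689% and 0.669% in T-MGM, or 0.610% ± 0.0079 against 0.679% ± 0.010 (SD, n = 3 each; exact permutation test, 2-sided p = 0.1, the smallest that 3 against 3 libraries allow). MALAT1 held 50.1% ± 0.38 of these counts in GFP and 50.5% ± 1.5 in T-MGM. The 3 ribosomal array loci held 0.107% ± 0.0069 of all counts in GFP and 0.141% ± 0.015 in T-MGM. Since these 3 loci have nearly the same counts, the same reads may enter this share, and that of all members, up to 3 times. The shares were not recomputed with the loci taken once. Without MALAT1 and these loci the share was 0.197% ± 0.0010 and 0.195% ± 0.0024 (exact permutation p = 0.3). The share of summed TPM went the other way, 0.509% ± 0.040 in GFP and 0.482% ± 0.040 in T-MGM (exact permutation p = 0.5), with overlapping groups.

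Among microRNA hosts, changes went in both directions. Of 11 host members on the list, 3 rose and 3 fell, beside 19.2% of all genes in each direction, and over all members 21 contained a microRNA gene on the same strand, of which 4 rose (MIR210HG, MIR222HG, NEAT1 and MIRLET7BHG) and 3 fell (MIRLET7IHG, MIR4435-2HG and MIR3142HG). MIR210HG, host of the hypoxia-induced miR-210 (chromosome 11, 565657 to 568457, minus strand), showed the largest rise of a host, from 87.5, 113 and 78.8 to 171, 207 and 154 normalized counts. Its log2 fold change was 0.92 (SE 0.19, adjusted p = 5.5e-06), but it did not pass on TPM values (limma adjusted p = 0.080). MIR222HG, the precursor of the cell-cycle regulators miR-221 and miR-222 (chromosome X, 45745210 to 45770274, minus strand), went from 281, 257 and 270 to 394, 396 and 356, a log2 fold change of 0.51 (SE 0.11, adjusted p = 2.0e-05). On log2(TPM + 1) values MIR222HG had 0.29 (limma adjusted p = 0.021, and 0.055 without the filter on low TPM).

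The hosts of the let-7 family, known for repressing growth genes through the shared seed shown above, did not move together. MIRLET7BHG (chromosome 22, 46053869 to 46113928, plus strand), which holds let-7a-3 and let-7b, rose from 1054, 1227 and 1244 to 1591, 1540 and 1629 normalized counts (log2 fold change 0.43, SE 0.06, adjusted p = 1.1e-12). With offsets for GC content and length MIRLET7BHG had 0.28 and passed, and on log2(TPM + 1) values without a filter it had 0.33 and did not (limma adjusted p = 0.057). AL158152.1 (MIRLET7A1HG), which holds let-7a-1, let-7d and let-7f-1, had a log2 fold change of 0.04 (SE 0.09, adjusted p = 0.80). MIRLET7IHG (chromosome 12, 62602752 to 62622213, plus strand) had 157, 188 and 172 normalized counts in GFP against 142, 143 and 103 in T-MGM, a log2 fold change of -0.42 (SE 0.17, adjusted p = 0.039). That call was lost under 8 of the alternatives, for example with edgeR (adjusted p = 0.105). The 8 include the fits without GFP replicate 2 (-0.35, adjusted p = 0.19), GFP replicate 3 (-0.42, 0.10) and T-MGM replicate 3 (-0.27, 0.27).

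MIR4435-2HG, a spliced host transcript of chromosome 2 (111006015 to 111523376, minus strand), fell from 1728, 1675 and 1611 to 1426, 1261 and 1358 normalized counts (log2 fold change -0.31, SE 0.05, adjusted p = 3.6e-08). Its near copy CYTOR, which holds the other miR-4435 gene, had a log2 fold change of 0.08 (SE 0.06, adjusted p = 0.27). The authors' methods state that uniquely aligned reads were counted. How reads that fit both copies equally well were handled cannot be told from the counts, so the values of this pair are uncertain. MIR3142HG (chromosome 5, 160438594 to 160487426, plus strand), host of the inflammation-related miR-146a, had 2382, 2053 and 2078 in GFP against 1898, 1903 and 1970 in T-MGM, a log2 fold change of -0.17 (SE 0.05, adjusted p = 0.0020). It did not pass without GFP replicate 1 (-0.10, adjusted p = 0.099) or with offsets for GC content and length (-0.066, adjusted p = 0.33).

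Of 8 snoRNA hosts on that list, 2 fell (beside 19.2% of all genes) and 6 did not pass, and log2 fold changes ranged from -0.37 to 0.08. SNHG4 (chromosome 5, 139274102 to 139284899, plus strand), which overlaps MATR3 on the same strand and carries SNORA74A, had 1931, 1797 and 1842 normalized counts in GFP against 1435, 1356 and 1508 in T-MGM, a log2 fold change of -0.37 (SE 0.05, adjusted p = 1.6e-12). SNHG8 (chromosome 4, 118278703 to 118285316, plus strand), which carries SNORA24, had 730, 782 and 693 in GFP against 668, 539 and 624 in T-MGM, a log2 fold change of -0.27 (SE 0.08, adjusted p = 0.0050). The SNHG8 call was lost without GFP replicate 2 (-0.22, adjusted p = 0.071) or T-MGM replicate 2 (-0.19, adjusted p = 0.088).

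Of 6 broadly expressed members on the list, 1 fell and log2 fold changes ranged from -0.23 to 0.21. That member was JPX, a transcript of the X inactivation centre (chromosome X, 73944182 to 74070408, plus strand), with 847, 777 and 848 normalized counts in GFP against 695, 677 and 731 in T-MGM. Its log2 fold change was -0.23 (SE 0.07, adjusted p = 0.0040), and it was lost with offsets for GC content and length (-0.11, adjusted p = 0.23). JPX overlaps the neighbouring lincRNA FTX on the opposite strand, which had the same log2 fold change of -0.23 with a larger error (SE 0.11, adjusted p = 0.076). PVT1 at the MYC locus, CYTOR and CRNDE did not pass, with log2 fold changes of 0.07, 0.08 and 0.21, though CRNDE passed as higher with offsets for GC content and length (0.34, adjusted p = 0.011). No gene of the list of p53-responsive and stress-responsive RNAs was a member. In all, 30 members were on the lists, of which 6 rose and 6 fell (beside 19.2% of all genes in each direction), none of them past 2-fold.

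**Figure D4:**
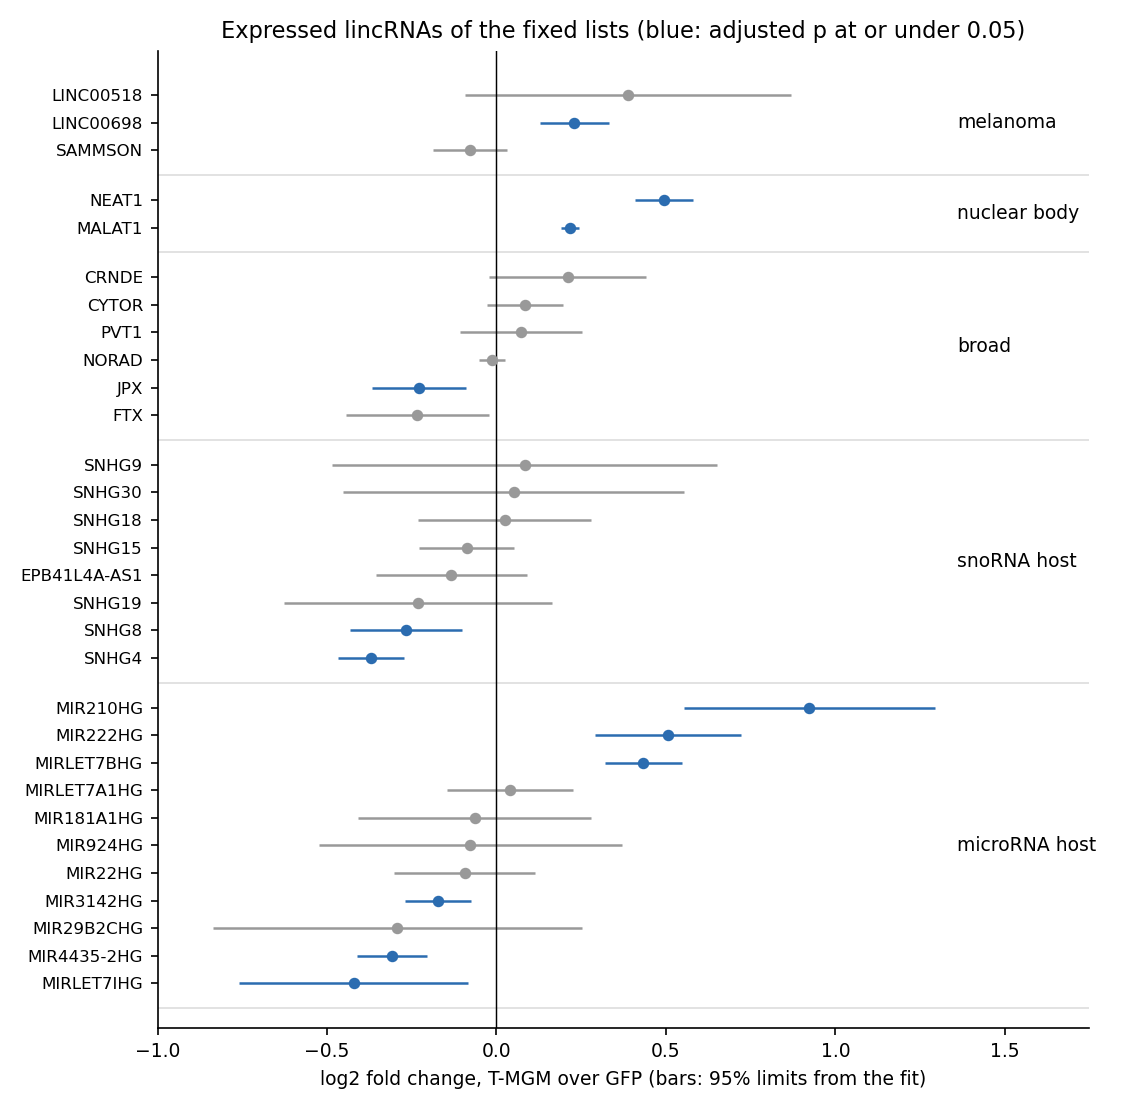
Log2 fold change (T-MGM over GFP) of the 30 expressed lincRNAs on the lists, grouped by list, with bars for the 95% limits of the fit and blue for an adjusted p at or under 0.05. Both nuclear body RNAs lie right of 0, both blue snoRNA hosts lie left of it, and the microRNA hosts spread from -0.42 to 0.92.

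LincRNAs that start close to a protein-coding gene were then set beside that gene. The gene type lincRNA itself depends on position, since RNAs typed as antisense, sense or bidirectional were not members, so the pairs are not a sample of all arrangements. For 157 members the nearest protein-coding start lay within 100 kb and belonged to a gene with a mean raw count of at least 50. The signs of the 2 log2 fold changes were the same in 92 pairs (58.6%), and the Spearman correlation across pairs was 0.28. By arrangement, the same sign was found in 67.2% of 67 head-to-head pairs, 56.7% of 60 pairs on the same strand and 43.3% of 30 facing pairs. For starts at most 1 kb apart and head to head it was 69.6% of 46 pairs. Among the 39 pairs whose lincRNA passed, both genes passed in the same direction in 24 and in opposite directions in 7. Over all 157 pairs, whether or not the lincRNA passed, the neighbour passed in 105. The neighbours of the 19 lincRNAs that rose had a median log2 fold change of 0.18, and those of the 20 that fell -0.18. The Spearman correlation was 0.16 within the 19 pairs and -0.15 within the 20. These are descriptions with no p, since both genes were measured in the same libraries, neighbours share base composition, and overlapping reads may be counted for either gene. Without the pairs that overlap, 61.5% of 117 had the same sign.

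Of the head-to-head pairs within 1 kb, 10 had a lincRNA that passed, and they were named for this arrangement after their values were seen. The neighbour passed in 7 of these 10 pairs, beside 27 of all 46 head-to-head pairs within 1 kb, whether or not the lincRNA passed. The pair moved together with both genes passing in 6. BAIAP2-DT rose by 0.30 (SE 0.08) and BAIAP2, encoding an actin regulator, by 0.52 (SE 0.05). Z93241.1 rose by 0.71 (SE 0.12) and POLDIP3 by 0.23 (SE 0.05). SCAMP1-AS1 rose by 0.69 (SE 0.22) and SCAMP1 by 0.19 (SE 0.05), and AC009041.2 (CEROX1) rose by 0.35 (SE 0.08) and SOX8, encoding a relative of SOX10, by 0.16 (SE 0.06), all on the log2 scale. In the lower direction were APTR at -0.71 (SE 0.25) with RSBN1L at -0.36 (SE 0.05), and NUP50-DT at -0.28 (SE 0.08) with NUP50, a nuclear pore gene, at -0.13 (SE 0.02). Opposite to them SUCLG2-AS1 fell by 0.69 (SE 0.26) while SUCLG2, a gene of the citric acid cycle, rose by 0.09 (SE 0.03), though this lincRNA did not pass with edgeR (adjusted p = 0.055) or without any of 4 libraries in turn (GFP replicates 1 and 2, T-MGM replicates 1 and 2, adjusted p up to 0.14). BAIAP2-DT and AC009041.2 did not pass on TPM values (limma adjusted p of 0.29 and 0.11), and with offsets for GC content and length AC009041.2 had 0.19 (adjusted p = 0.058). For LINC01184, AC022784.1 and LINC02202 the neighbours SLC12A2, PPP1R3B and EBF1 did not pass, with log2 fold changes of -0.08, 0.05 and -0.06. APTR did not pass without GFP replicate 3 (adjusted p = 0.149) or T-MGM replicate 1 (0.124), nor SCAMP1-AS1 without GFP replicate 1 (0.0524) or T-MGM replicate 3 (0.0898). LINC01184 and LINC02202 were lost likewise without 2 and 3 of the 6 libraries in turn.

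**Figure D5:**
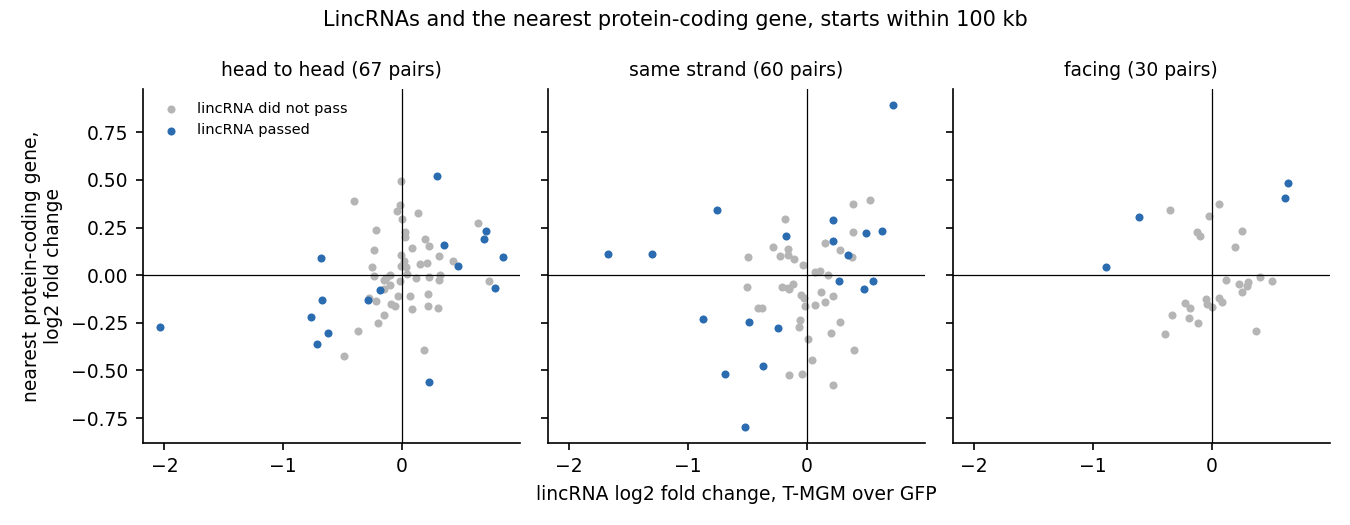
Log2 fold change of the nearest protein-coding gene (vertical axis) against that of the lincRNA (horizontal axis, T-MGM over GFP) for 157 pairs with starts within 100 kb, split by arrangement, with blue for lincRNAs that passed. Points in the lower left and upper right quadrants moved in the same direction, which holds for 67.2% of the head-to-head pairs and 43.3% of the facing pairs.

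Base composition and chromosome position also moved with the fold changes of the lincRNAs. Across 260 members the Spearman correlation of the log2 fold change with the exonic GC content was 0.27, and the median GC content was 50.2% for members that rose and 45.3% for those that fell, beside 47.8% for all. The median exonic length was 2811 bases for members that rose and 4121 bases for those that fell. Across 248 members with at least 10 measured protein-coding genes within 5 Mb, the Spearman correlation with the median log2 fold change of those genes was 0.23. With offsets for GC content and length 66 members passed, 55 of them also in the same direction without the offsets, and the same 8 lincRNAs were past 2-fold. The part of GC content and position in the changes of single lincRNAs was not tested.

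FP236241.1, a chromosome 21 locus, was the only member without a test, since DESeq2 gave it no adjusted p. Its raw counts were 0, 86 and 3 in GFP against 216, 214 and 0 in T-MGM, so it was detected strongly in 1 GFP library and 2 T-MGM libraries and hardly in the others.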

How the data were processed

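RNA sequencing of 6 libraries (GFP and T-MGM, 3 each) was grouped by sample title. The authors trimmed reads with cutadapt 1.8.1, aligned them to GRCh38 with STAR 2.7.7a, used featureCounts, by their methods on the uniquely placed reads, and deposited raw counts per gene without normalization. FP236383.2 and FP236383.3 nonetheless had the same count in every library, so how reads shared between copies were counted is uncertain. The authors also deposited TPM values from RSEM 1.3.0, which were used for levels and alternatives. The annotation release is not given in the sources used here.

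Counts of all genes with a count were compared with DESeq2 1.42.0 in R 4.3.3 (2-sided Wald test, median-of-ratios size factors, no shrinkage, independent filtering at 0.05, Benjamini-Hochberg adjustment over all genes tested), and only lincRNA rows are printed. Shares of counts were compared with an exact permutation test (SciPy 1.17.1). Positions are from GENCODE 44, and list members were matched by the symbol in the table or in GENCODE. Named were the members past 2-fold, the 8 with the highest mean TPM, the members of 6 lists that passed, SAMMSON, and the nearest protein-coding genes of the first group and of SAMMSON, here also where they start over 100 kb away. LINC00518, NORAD, CYTOR, FTX, PVT1, CRNDE and the head-to-head pairs were added after values were seen. Members and lists were chosen with earlier results of these data known.

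Alternatives were edgeR 4.0.16 (quasi-likelihood, TMM), TMM or total-count scaling, a minimum of 10 counts in 3 libraries, the replicate number as a block, each library left out, limma 3.58.1 on log2 TPM plus 1 or 0.1 with a minimum of 0.5 TPM in 3 libraries or none, lowess offsets for GC content and length (span 0.3), a test against a log2 fold change of 1, and other definitions of the members. The steps were tested on simulated data. Each library was counted as a sample. Replicates of a group differed beyond counting error (chi-square of 2.85 to 5.58 per degree of freedom), which does not show whether they came from separate cultures. A floor of 3 counts corresponds to 0.0506 to 0.0856 CPM, and covers counting error only.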

Additional observations from a re-analysis of the deposited data

How the results depend on the processing

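The count of 69 lincRNAs that passed was 51 to 59 when 1 library was left out, and fell to 30 with limma on log2(TPM + 1) without a filter and to 16 among the 88 members that overlap no other gene. The 8 past 2-fold were 8 to 10 with 1 library left out, 3 with limma on log2(TPM + 1) with or without a filter, 2 in a test against a log2 fold change of 1, 4 with a mean raw count of at least 100 and 3 among members without overlap. The median log2 fold change of the members was -0.067 with total counts as scaling, -0.090, -0.13 and -0.084 with limma on log2(TPM + 1), on log2(TPM + 0.1) and without a filter, 0.02 with offsets for GC content and length, and -0.020 to 0.0082 with 1 library left out. The difference in the share of counts (T-MGM minus GFP, 0.0685 percentage points) was -0.0276 for summed TPM. The median of the neighbours of lincRNAs that rose was 0.23 within 10 kb and 0.091 with the offsets, and of those that fell -0.13 and -0.12. AL360012.1 (-0.41 to 0.0056) and NORAD (-0.024 to 0.0018) changed sign when 1 library was left out, and NORAD (0.12) and SAMMSON (0.012) did so with the offsets. MITF was -0.062 under each of the 3 limma fits, and JPX, LINC00698, BAIAP2-DT, AC009041.2, FP671120.4, MIR210HG and LINC01270 did not pass under any of them. Without the filter on low TPM, others that did not pass included MIRLET7BHG, MIR222HG, NUP50-DT, SUCLG2-AS1, MIRLET7IHG, FP236383.2 and FP236383.3. The offsets removed the calls of SUCLG2-AS1, MIRLET7IHG, JPX, LINC01184, MIR3142HG and AC009041.2. Calls were lost without 1 library for MIRLET7IHG (GFP replicate 2, GFP replicate 3 or T-MGM replicate 3, adjusted p up to 0.27) and APTR (GFP 3 or T-MGM 1, up to 0.15). The same held for SUCLG2-AS1 (GFP 1, GFP 2, T-MGM 1 or T-MGM 2, up to 0.14), LINC01184 (GFP 3 or T-MGM 3, up to 0.082) and SCAMP1-AS1 (GFP 1 or T-MGM 3, up to 0.090). It also held for LINC02202 (GFP 1, T-MGM 1 or T-MGM 2, up to 0.11), SNHG8 (GFP 2 or T-MGM 2, up to 0.088) and MIR3142HG (GFP 1, 0.099). Taking the 3 ribosomal array loci once, chosen after seeing the data, gave 67 that passed.

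Same-numbered libraries did not deviate together (correlations of -0.040 to 0.043), so the replicate numbers do not establish a pairing; with the number as a replicate block 50 lincRNAs passed and 8 were past 2-fold, and of the single genes named MIRLET7IHG and SUCLG2-AS1 no longer passed and RMRP did. Counts limit what could pass: between 50 and 100 counts the median SE of a lincRNA was 0.26 (log2).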

Other observations

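Several lncRNAs on the lists fell outside the criteria, and their values are given here as descriptions. LINC00520, a melanoma lincRNA 1 count under the minimum, had 68.7 ± 11.1 normalized counts in GFP against 32.6 ± 3.8 in T-MGM (SD, n = 3 each; log2 fold change -1.07, SE 0.29, DESeq2 adjusted p = 0.00078). BANCR, a BRAF-activated RNA, had 23.9 ± 2.3 and 6.81 ± 2.1 (log2 fold change -1.83, SE 0.55, DESeq2 adjusted p = 0.0030). These 2 were lower and past 2-fold, unlike the 3 melanoma lincRNAs above the minimum, although CASC15 at a mean raw count of 28.3 had a log2 fold change of 0.17 (DESeq2 adjusted p = 0.81).

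Some well-known RNAs have another gene type in the table. On the list of broadly expressed RNAs, 6 had another gene type and a mean raw count of at least 50. Of these 1 fell and 2 rose, where 19.2% of all genes passed in each direction. H19, an imprinted transcript, fell from 3709 ± 58.7 to 1685 ± 57.6 normalized counts (log2 fold change -1.14, SE 0.04). DANCR (0.13, SE 0.04) and TUG1 (0.05, SE 0.02) rose, on the log2 scale. HOTAIR, under that minimum at a mean raw count of 11, rose from 2.64 ± 1.7 to 16.9 ± 2.3 (2.67, SE 0.80). Of 5 microRNA hosts of other gene types with a mean raw count of at least 50, 1 rose and 2 fell, where 19.2% of all genes passed in each direction. MIR100HG, host of let-7a-2 and miR-100, rose from 630 ± 34.1 to 1157 ± 63.0 (log2 fold change 0.87, SE 0.07). MIR17HG (-0.40, SE 0.08) and DLEU2 (-0.36, SE 0.07) fell, on the log2 scale. Of 17 snoRNA hosts of other gene types with a mean raw count of at least 50, 9 fell and 2 rose, where 19.2% of all genes passed in each direction and 57.2% of protein-coding genes with that minimum passed. They include GAS5 (-0.30, SE 0.03), ZFAS1 (-0.52, SE 0.05), SNHG12 (-0.45, SE 0.07) and SNHG10 (0.65, SE 0.16) on the log2 scale. The sources differ on whether the libraries kept strand, so reads of antisense types such as ZFAS1 and SNHG12 may include those of their opposite genes.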
